A study of Arabidopsis thaliana with 115 samples.

Results

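The genes described here are the phi (GSTF) and tau (GSTU) glutathione S-transferase genes of Arabidopsis thaliana, 38 of the 33016 genes counted, chosen by their class and not by any measured value. They comprise 10 phi genes, GSTF2 to GSTF4 and GSTF6 to GSTF12, and 28 tau genes, GSTU1 to GSTU28. Of these, 36 passed the filter on low counts (at least 10 reads in at least 3 libraries), 9 phi and 27 tau, and were tested among 22883 genes. GSTF11 (AT3G03190) and GSTU23 (AT1G78320) did not pass it.

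Glutathione S-transferases join the tripeptide glutathione to electrophilic molecules such as herbicides and oxidised lipids, and the conjugates are carried into the vacuole by ABCC transporters. The phi and tau classes are the large classes in plants, and many of their genes lie in tandem arrays of close relatives. Several are known to be induced by herbicide safeners, oxylipins, salicylic acid and auxin. In the promoters of some, induction depends on paired TGACG motifs (the as-1 or ocs element), which are bound by TGA-type bZIP factors.

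The study asked which genes respond directly to 33 transcription factors (TFs) that react early to nitrogen. Protoplasts from roots of 10-day-old wild-type (Col-0) plants carried either a TF fused to the glucocorticoid receptor (GR) or the empty vector (EV), which makes GR alone. Cells of both kinds received 60 mM nitrogen (20 mM KNO3 and 20 mM NH4NO3), 35 uM cycloheximide (CHX), which stops protein synthesis, and 10 uM dexamethasone (DEX), which lets the fusion protein into the nucleus, and transfected cells were then sorted by their fluorescent reporter. The polyA RNA of 97 TF libraries and 18 EV libraries was sequenced, in 6 batches with 3 EV libraries each. The TFs were ERF056, GATA17 and HSFB2A in batch 1, TGA1 alone in batch 2, HB6, TGA4, HYH, BEE2, HHO3, CRF4, GATA17L and COL5 in batch 3, NAC4, ZFP4, CDF1, LBD38, C2H2, HHO2, bZIP3, ASR3 and ERF060 in batch 4, FBH4, HAT22, MYB61, NAP, TCP23 and WRKY18 in batch 5, and DIV1, ERF5, LBD37, RAV1, VRN1 and WRKY54 in batch 6. FBH4 and HAT22 have 2 libraries and the other TFs have 3. The study's methods describe replicate wells of cells from the same transfection, so the p-values measure the spread between wells. By the same methods, a well held cells with a TF in the RFP vector and cells with a TF in the GFP vector. Every comparison within a batch uses the same 3 EV libraries. Which reporter colour a library carried, and which libraries shared wells, is not given in the labels. Because all cells received CHX, levels in EV are those of CHX-treated protoplasts, and the study lists GSTU11 and GSTU20 among the genes that respond strongly to CHX itself.

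Libraries held 1542961 to 45372240 counts. The libraries of batches 5 and 6 were shallower (at most 6749897 and 9697384 counts), and their 10 most abundant genes took 18.3% to 49.5% of the counts, against at most 8.14% in batches 1 to 4. In each of the 33 TFs the lowest library of that TF held more of the TF's own transcript, relative to library size, than the highest of all the other libraries, so labels and transfected genes matched throughout. Of 14 root cell markers, those of the endodermis, the phloem and phosphate uptake were detected in every library (MYB36 at a median CPM (read count scaled to library size) of 35.9, APL at 29.3 and PHT1;1 at 41.3). The epidermal markers were uneven. WER, COBL9 and IRT1 were at 0 in 12, 39 and 66 libraries, EXPA7 in 10 and GL2 in 2, and PIN2 was detected in every library. The summed root markers were 73.6 to 401 CPM in TF libraries and 78.7 to 421 CPM in EV libraries, and were highest in batches 5 and 6 (at least 251 CPM, against at most 199.6 CPM in the others). Of 7 leaf markers, RBCS1A, RBCS3B, LHCB1.1 and LHCB2.1 stayed below 0.87 CPM, and the carbonic anhydrase gene CA1, at 10.5 to 71.9 CPM, made up nearly all of their sum. In bulk RNA, fewer cells of a type and less RNA per cell cannot be told apart.

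In EV cells a few phi and tau genes carried most of the RNA of the family. Levels are given in CPM on the normalized library size, and per kilobase of exon where genes are compared with each other. Per kilobase, GSTU11 (AT1G69930) was highest with a median of 825 CPM per kb over the 18 EV libraries, before GSTF7 (AT1G02920) at 718, GSTF6 (AT1G02930) at 482 and GSTU19 (AT1G78380) at 272 CPM per kb. Their SDs over these libraries were 591, 522, 407 and 129, so their order lies within their spread. Per kilobase of coding sequence GSTF7 was ahead of GSTU11 (1383 against 1272). GSTF6 takes part in the synthesis of the defence compound camalexin, GSTF7 is a pathogen-inducible neighbour of it, and GSTU19 is an abundant tau enzyme that conjugates many test substrates. GSTF10, GSTU5 and GSTF8 followed at 189, 183 and 182 CPM per kb, with SDs of 84.6, 55.2 and 87.4 over the 18 EV libraries, so the order of these neighbours lies within their spread. Together GSTF7, GSTU11, GSTF6 and GSTF8 made up 58.9% of the mean summed CPM of the family. At the other end, 10 tested genes had medians below 5 CPM in EV cells (GSTU2, GSTU15, GSTU28, GSTU21, GSTU18, GSTF12, GSTU14, GSTU20, GSTF4 and GSTU16). GSTF12 (TT19), which carries flavonoids towards the vacuole, was one of them, with 0 to 2.26 CPM in EV libraries. GSTU23 reached at most 11 reads in any library, and GSTF11 had no read in any TF or EV library.

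The EV levels of the same gene differed widely between batches, although all EV cells were treated alike. GSTF9 (AT2G30860) averaged 125 to 171 CPM in the EV libraries of batches 1 to 4, but 5.76 ± 2.48 CPM in batch 5 and 2.16 ± 0.518 CPM in batch 6 (SD, n = 3 each). Its tandem neighbour GSTF10 (AT2G30870) and GSTF8 (AT2G47730), a gene used as a marker of root stress responses, were also lowest in batches 5 and 6, with GSTF8 at 94.4 and 87.2 CPM there and 412 to 590 CPM in batches 1 to 4. GSTU12 (AT1G69920) ran the other way, with 10.3 CPM in batch 4 and 265 CPM in batch 5, although its array neighbour GSTU11 was lowest in batch 5 at 151 CPM and highest in batch 1 at 1803 CPM. GSTF6 and GSTF7 were lowest in batch 4 (175 and 219 CPM) and highest in batch 6 for GSTF6 (1349 CPM) and batch 3 for GSTF7 (1719 CPM). Batch differences also include depth and the share of the most abundant genes given above, and their part in these levels was not tested. For this reason each TF is compared only with the EV libraries of its own batch.

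**Figure D1:**
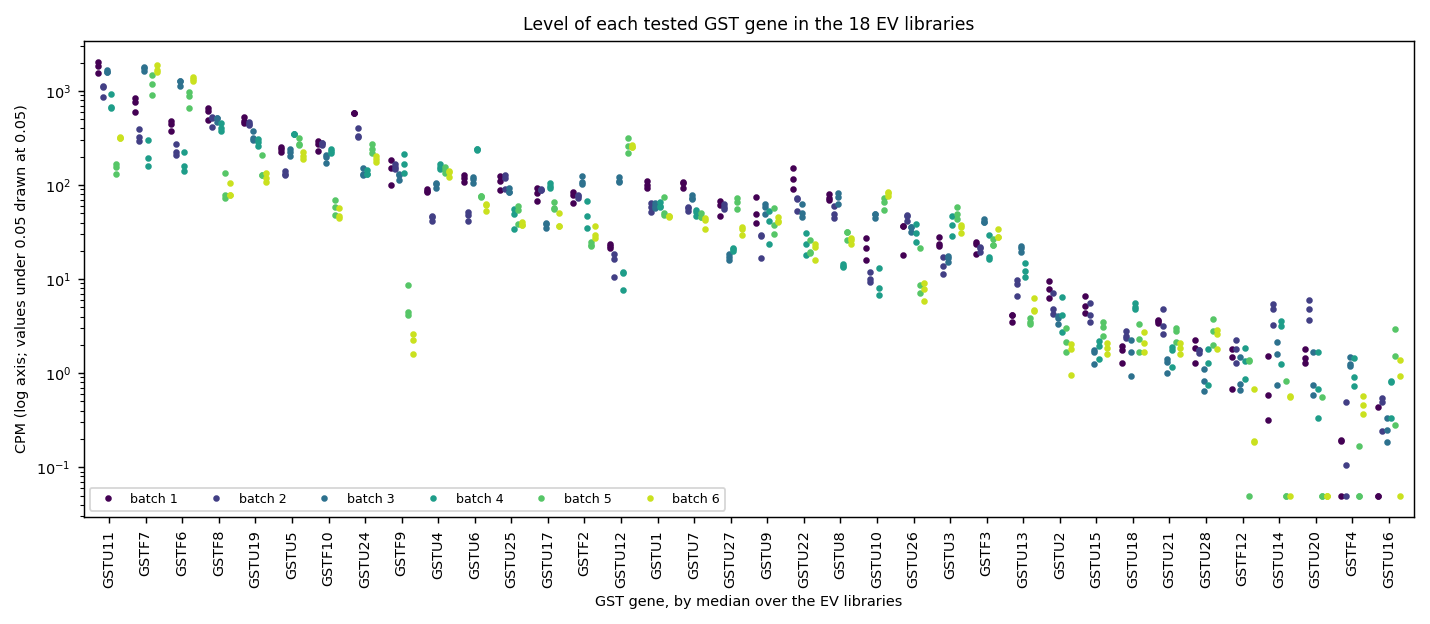
Level of each of the 36 tested genes in the 18 EV libraries, in CPM on a log axis, coloured by batch, with genes ordered by their median. Each point is a library. GSTF9 sits at 99.8 to 212 CPM in batches 1 to 4 and at 1.59 to 8.62 CPM in batches 5 and 6, and GSTU12 spans 7.66 to 315 CPM.

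A gene was counted as changed where edgeR's quasi-likelihood test gave a Benjamini-Hochberg adjusted p below 0.05, adjusted over all 22883 genes within each TF. Over the 33 TFs and 36 tested genes, 345 of 1188 pairs of TF and gene passed (29%), against 9.58% of the pairs over all genes. Of these, 182 were higher with the TF, where 4.59% of all pairs were, and 163 were lower, where 4.99% of all pairs were. In 325 of the 345 pairs (94.2%) the TF libraries and the EV libraries did not overlap, much as in the pairs that passed over all genes (93.2%), and 93 changed by more than 1 on the log2 scale. The median tested GST gene changed for 10.5 TFs and the median gene of all tested for 2, and 20 of the 36 changed for 10 or more TFs, as did 8.46% of all genes. The GST genes were also more deeply counted, with a median of 661 reads per library against 94.9 over all tested genes, and the part of depth in these counts was not tested. Leaving out the libraries numbered 2 in every group brought the number of pairs down to 184, with 85 higher and 99 lower.

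Most of the family moved in both directions. Of the 36 genes, 22 rose for some TFs and fell for others, 9 only rose, 1 only fell and 4 passed for no TF. Thus 32 of the 36 passed for at least 1 TF, against 70.2% of all tested genes. The split by direction was not made over all genes, so it is not shown to be particular to the family. GSTF6 changed most often, with 8 rises and 13 falls, and its neighbour GSTF7 passed for 18 of the same TFs, with 8 rises and 10 falls. GSTU4 (AT2G29460) was the gene that only fell, for 19 TFs spread over all 6 batches. Among those that only rose, GSTU25 (AT1G17180) and GSTU22 (AT1G78340) each rose for 12 TFs, and GSTU2, GSTU15, GSTF4, GSTU9, GSTU14, GSTU21 and GSTU18 for 4, 4, 3, 3, 2, 2 and 1. GSTU8 (AT3G09270) rose for 15 TFs and fell for TGA1 and NAP, GSTU7 (AT2G29420) rose for 13 and fell for 4, GSTU1 (AT2G29490) rose for 12 and fell for 2, and GSTU19 rose for 11 and fell for 4. The remaining genes lay between these, with GSTU12 falling for 13 TFs and rising for 4, GSTU6 falling for 13 and rising for 2, GSTF2 falling for 12 and rising for 3, and GSTF3 falling for 11 and rising for 4. GSTU11 rose for 8 and fell for 9, GSTU13 rose for 7 and fell for 6, GSTF10 rose for 5 and fell for 8, GSTU24 rose for 6 and fell for 6, GSTU27 rose for 5 and fell for 6, and GSTF8 rose for 5 and fell for 5. GSTU26 rose for 9 TFs and fell for 1, GSTU10 rose for 7 and fell for 1, GSTU5 rose for 3 and fell for 5, GSTU17 rose for 1 and fell for 6, GSTF9 rose for 2 and fell for 4, and GSTU3 rose for 1 and fell for 3.

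**Figure D2:**
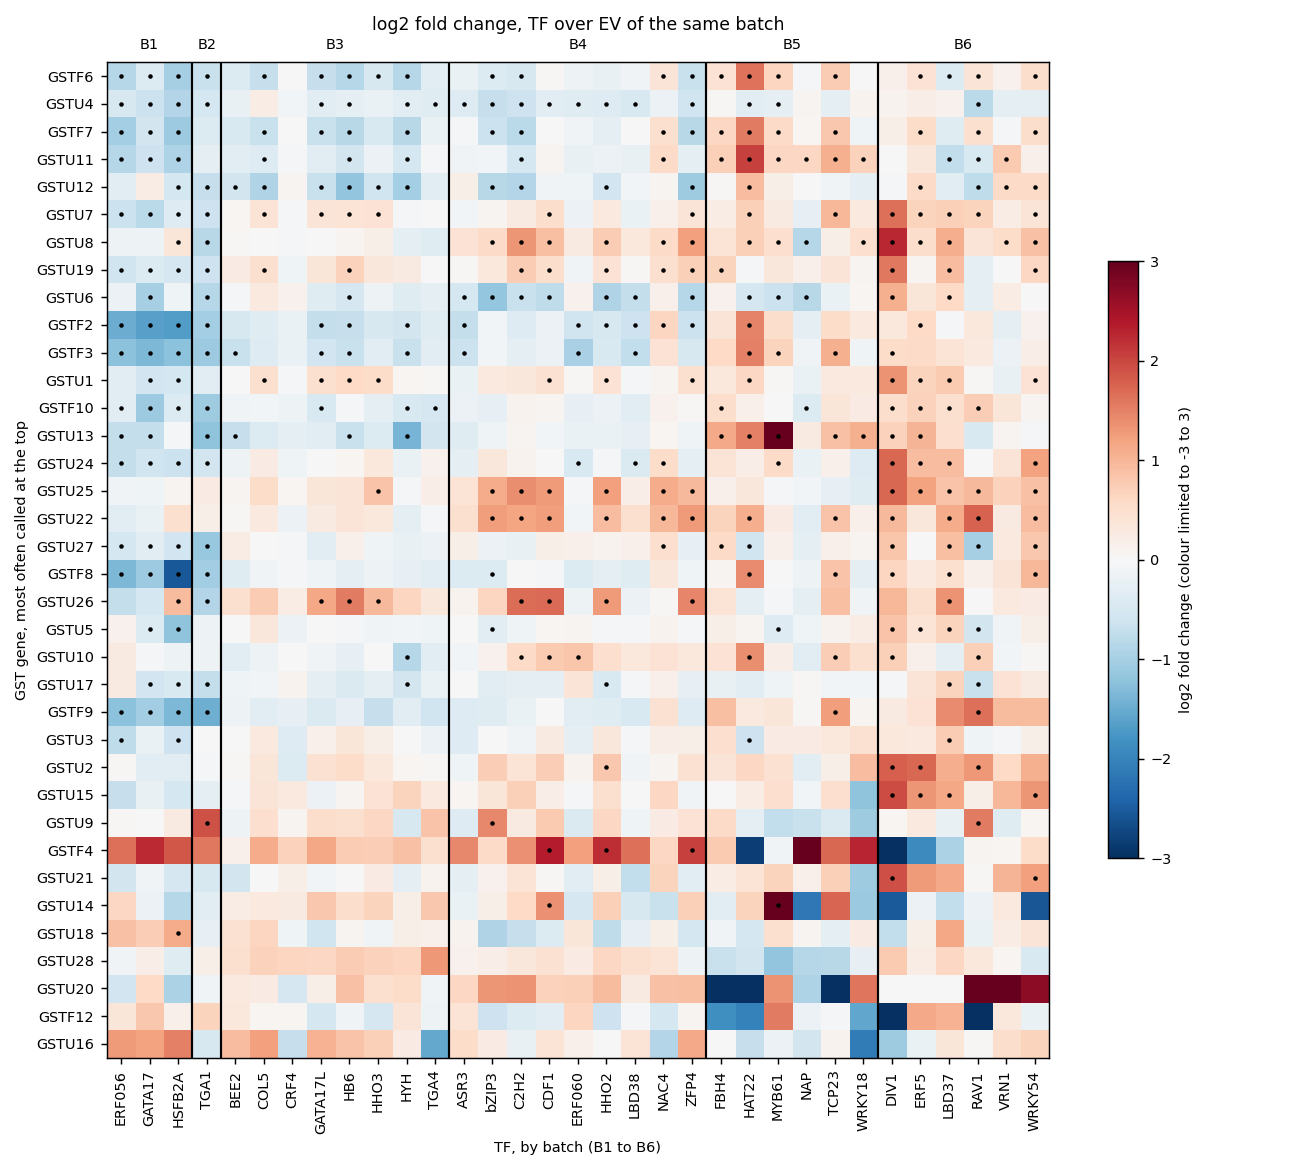
Log2 fold change of each tested GST gene (rows, most often changed at the top) for each of the 33 TFs (columns, grouped by batch B1 to B6) against the EV libraries of the same batch, with red for higher and blue for lower with the TF. A dot marks an adjusted p below 0.05, and colours are limited to -3 and 3. The columns of batch 1 and TGA1 are mostly blue, those of batch 6 mostly red, and GSTU4 is blue in every dotted column.

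The direction of the changes went with the batch, and so with the EV libraries that TFs of a batch share. In batch 1, 3 pairs were higher (background 7.99% of all pairs) and 51 of 108 were lower (background 10.9%). In batch 6 the split was the reverse, with 75 of 216 pairs higher (background 6.18%) and 8 lower (background 7.32%), and in batch 5 it was 42 higher (background 5.96%) and 10 lower (background 3.99%). Batch 3 had 14 higher (background 1.37%) and 38 of 288 lower (background 2.11%), and batch 4 had 47 of 324 higher (background 3.86%) and 39 lower (background 4.05%). Of the calls over all genes, 42.3% were higher in batch 1, 45.7% in batch 2, 39.3% in batch 3, 48.8% in batch 4, 59.9% in batch 5 and 45.8% in batch 6. Of the GST calls it was 5.56%, 5.56%, 26.9%, 54.7%, 80.8% and 90.4% in the same order. The shares of batches 1, 2, 3 and 5 thus leaned the same way over all genes, by less. Those of batches 4 and 6 leaned the other way over all genes.

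The summed level of the 38 genes showed the same from library to library. It was 3398 to 4497 CPM in the 9 TF libraries of batch 1, all below the EV libraries at 5893, 6615 and 6727 CPM, and 2922 to 3149 CPM with TGA1 against 3988 to 4524 CPM in its EV libraries. In batch 3 the sums of 6 of the 8 TFs lay wholly below EV (6822 to 7529 CPM), and in batch 6 those of 5 of the 6 TFs lay wholly above EV (4818 to 5222 CPM). Over all batches 10 TFs lay wholly above their EV libraries, 12 wholly below and 11 overlapped them. HAT22 stood highest, with 8975 and 9646 CPM against 3743, 3975 and 4555 CPM in its EV libraries, and NAC4 was the TF of batch 4 that lay wholly above (4564 to 4929 CPM, against 3385 to 4069 CPM in EV). Since 3 EV libraries set the reference for a whole batch, a comparison of each TF with the mean of the other TFs of its batch was added after these values were seen, and is given beside the TFs described below. In batch 1 the leaf marker sums were 42.5 to 55.7 CPM in EV libraries. Those of ERF056 (27.8 to 34.5 CPM) and HSFB2A (25.7 to 30.4 CPM) lay wholly below, and those of GATA17 (37.5 to 60.8 CPM) overlapped them. The root marker sums were 105 to 118 CPM in EV libraries. Those of GATA17 (119 to 133 CPM) and HSFB2A (134 to 139 CPM) lay wholly above, and those of ERF056 (117 to 123 CPM) overlapped them. Whether these have a part in the GST levels was not tested.

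**Figure D3:**
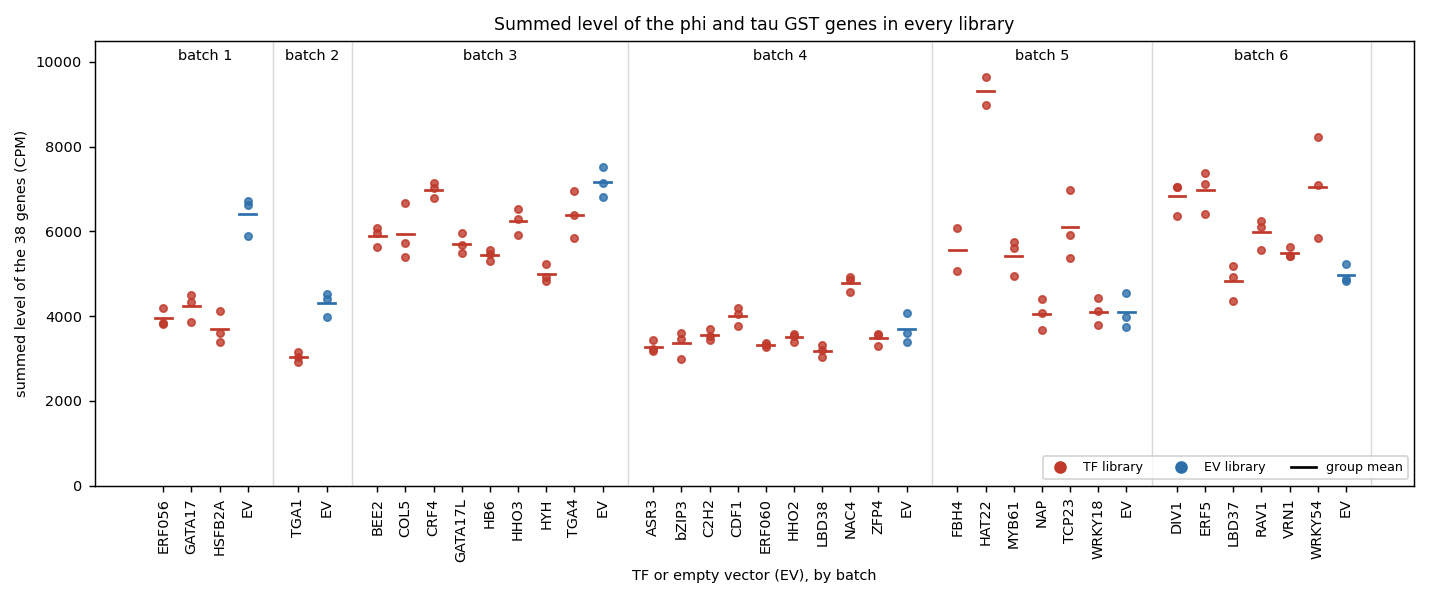
Summed CPM of the 38 genes in each library (points) with the group mean (line), by batch, with TFs in red and EV in blue at the right of each batch. The batch 1 TF libraries reach at most 4497 CPM and the batch 1 EV libraries start at 5893 CPM, and the HAT22 libraries, at 8975 and 9646 CPM, are the highest plotted.

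For single TFs, the share of the 36 genes that changed was above the share of all genes for 32 of 33 TFs. In batch 1 it was 21 genes for HSFB2A (21.9% of all genes), 18 for GATA17 (16.1%) and 15 for ERF056 (18.7%), and in batch 2 it was 18 for TGA1 (19.7%). These 4 TFs also moved many other genes. In batch 3, HB6 changed 13 GST genes (6.54% of all genes), HYH 11 (6.83%), GATA17L 10 (4.58%), COL5 7 (3.97%), HHO3 6 (2.91%), BEE2 3 (0.891%) and TGA4 2 (1.39%). CRF4 was the TF with no GST gene past edgeR's test (0.708% of all genes); 1 gene had an unadjusted p below 0.05 and DESeq2 called 0, with no adjusted p for 10 of the 36. In batch 4, ZFP4 changed 14 (9.13% of all genes), HHO2 13 (8.59%), C2H2 12 (15.3%), CDF1 12 (7.04%), bZIP3 11 (13%), NAC4 10 (5.13%), ERF060 5 (4.72%), LBD38 5 (4.62%) and ASR3 4 (3.74%). The 10 GST genes that changed with NAC4 were all higher. In batch 5, HAT22 changed 17 (17% of all genes), MYB61 11 (11.7%), TCP23 10 (10.4%), FBH4 7 (6.29%), NAP 4 (8.4%) and WRKY18 3 (5.92%). In batch 6, DIV1 and LBD37 changed 18 each (25.3% and 10.7% of all genes), RAV1 16 (24.4%), ERF5 14 (7.34%), WRKY54 14 (10.7%) and VRN1 3 (2.55%). All changes with DIV1, ERF5, WRKY54, VRN1, TCP23, FBH4 and WRKY18 were rises.

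**Figure D4:**
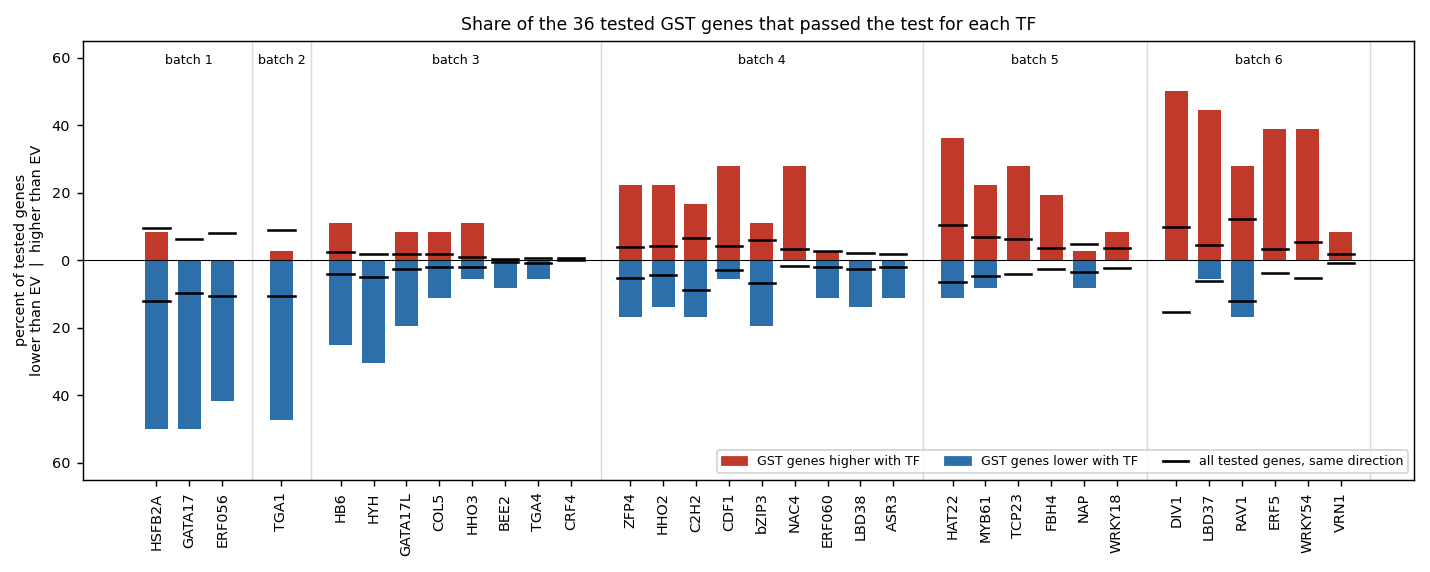
Percent of the 36 tested GST genes higher (red, upwards) or lower (blue, downwards) with each TF than in EV, at an adjusted p below 0.05, with TFs grouped by batch. Black lines give the percent of all 22883 tested genes that changed in the same direction. Blue bars dominate batches 1 and 2, where 18 of the 36 genes were lower for HSFB2A and for GATA17, and red bars dominate batches 5 and 6.

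The 8 genes that changed for most TFs are given in the TF with their largest change; GSTU19 shared the eighth place, at 15 TFs, with GSTF2, GSTF3 and GSTU6 and was taken for its higher mean CPM. GSTF6 had 2520 and 2676 CPM with HAT22, a homeodomain-leucine zipper factor, against 661, 884 and 985 CPM in EV (log2 fold change 1.62 ± 0.13 (SE), adjusted p = 3.45e-20). GSTF7 had 3329 and 3726 CPM with HAT22, against 906, 1202 and 1491 CPM in EV (1.56 ± 0.17, adjusted p = 3.46e-12). Of the exonic stretches of 50 bases, 9.41% of those of GSTF6 recur in GSTF7, and how reads from these were assigned is not stated, so their part in the likeness of the 2 genes was not tested. GSTU11 had 593 and 657 CPM with HAT22, against 131, 154 and 169.5 CPM in EV (2.04 ± 0.13, adjusted p = 1.78e-26). The HAT22 libraries were above every EV library of the batch in all 3 genes.

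GSTU7, GSTU8 and GSTU19 had their largest changes with DIV1, a MYB-related factor. GSTU8 had 107, 134 and 131 CPM with DIV1, against 23.9, 26.1 and 27.5 CPM in EV (2.26 ± 0.15, adjusted p = 5.96e-25). GSTU7 had 121, 129 and 135 CPM with DIV1, against 44.8, 34.5 and 42.5 CPM in EV (1.66 ± 0.12, adjusted p = 3.51e-23). GSTU19 had 362, 377 and 323 CPM with DIV1, against 134, 107 and 118 CPM in EV (1.57 ± 0.15, adjusted p = 1.6e-14). No DIV1 library came near the EV range in any of them.

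The 2 genes of this set whose largest changes were falls are GSTU4 and GSTU12. GSTU4 had 44.5, 47.0 and 50.8 CPM with HSFB2A, a class B heat shock factor, against 87.3, 90.6 and 84.2 CPM in EV (-0.88 ± 0.10, adjusted p = 6.06e-13). GSTU12 had 50.2, 48.2 and 52.2 CPM with HB6, a homeodomain-leucine zipper factor, against 122, 107 and 112 CPM in EV (-1.18 ± 0.15, adjusted p = 8.26e-09). The fall of GSTU4 was modest in each TF, with no TF lower than this, but it recurred in TFs of all 6 batches.

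**Figure D5:**
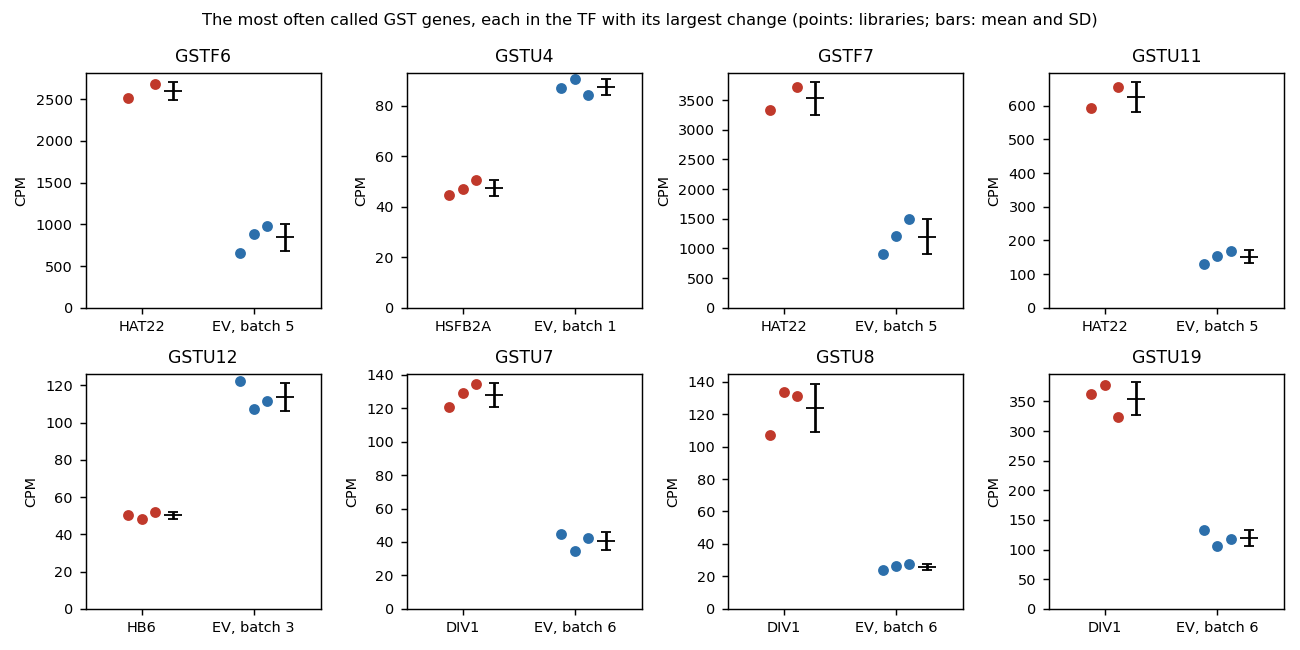
CPM in each library (points) of the 8 GST genes that changed for most TFs, each in the TF with its largest change (red, left) and in the EV libraries of the same batch (blue, right), with mean and SD beside them. HAT22 has 2 libraries and the other groups have 3. In all 8 panels the TF and EV points do not overlap, as in 93.2% of the pairs that passed over all genes.

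The largest change of any pair, which lies outside the naming rule and was picked after its values were seen, was that of GSTU13 with MYB61. GSTU13 (AT1G27130) is known for a part in the metabolism of indole glucosinolates, and MYB61 is an R2R3 MYB factor. It had 55.8, 51.3 and 38.7 CPM with MYB61, against 3.48, 3.35 and 3.85 CPM in EV (3.76 ± 0.24, adjusted p = 1.48e-26). Its tandem neighbour GSTU14 (AT1G27140) rose with MYB61 too, at 4.33, 2.53 and 1.44 CPM against 0.829, 0 and 0 CPM in EV (adjusted p = 0.00257), which are few reads. No other TF raised GSTU13 by more than 1.51 on the log2 scale, the value for HAT22.

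The genes of the GSTU1 to GSTU7 array lie on the minus strand of chromosome 2 within some kilobases of each other, and their changes agreed for some pairs and not for others. GSTU1 and GSTU7, at the ends of the array, changed together for 13 TFs, which is 13 of the 14 TFs that changed GSTU1 and of the 17 that changed GSTU7, always in the same direction. GSTU4 and GSTU6, between them, changed together for 12 TFs, of 19 and 15, again always in the same direction. Between these pairs the directions were mixed. Of the 8 TFs that changed both GSTU1 and GSTU4, 6 moved them in opposite directions, as did 6 of the 10 TFs that changed both GSTU7 and GSTU4, 5 of the 8 that changed both GSTU1 and GSTU6, and 4 of the 8 that changed both GSTU7 and GSTU6. With HB6, for instance, GSTU1 had 79.7, 90.9 and 102 CPM against 56.4, 64.4 and 60.4 CPM in EV (0.59 ± 0.13, adjusted p = 0.000568). GSTU6 had 66.2, 82.6 and 94.7 CPM with HB6 against 106, 117 and 122 CPM in EV (-0.50 ± 0.13, adjusted p = 0.00397). In neither gene did the HB6 libraries overlap the EV libraries. The same split was seen with CDF1, a DOF factor, where GSTU7 rose by 0.52 ± 0.11 and GSTU1 by 0.45 ± 0.13 on the log2 scale, while GSTU4 and GSTU6 changed by -0.32 ± 0.09 and -0.77 ± 0.12. DIV1 and LBD37 differed, since GSTU6 rose with them too (1.06 ± 0.14 and 0.59 ± 0.14). GATA17 lowered GSTU1, GSTU7, GSTU4 and GSTU6 alike. All these TFs of a batch share their EV libraries, and an antisense gene overlaps GSTU6 and another overlaps GSTU7, whose reads cannot be told apart without strand.

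The promoters of the 4 genes are shown because neighbours in 1 array moved in opposite directions for some TFs; GSTU1 and GSTU6 were added to the rule's GSTU7 and GSTU4 after their values were seen. Each is the 250 bases before the annotated gene start (RefSeq, TAIR10.1), read 5′ to 3′ on the gene's own minus strand, with the motif TGACG in capitals on either strand (TGACG or CGTCA). They lie at chr2:12632539-12632788 (GSTU1), chr2:12618900-12619149 (GSTU7), chr2:12627892-12628141 (GSTU4) and chr2:12621232-12621481 (GSTU6).
GSTU1: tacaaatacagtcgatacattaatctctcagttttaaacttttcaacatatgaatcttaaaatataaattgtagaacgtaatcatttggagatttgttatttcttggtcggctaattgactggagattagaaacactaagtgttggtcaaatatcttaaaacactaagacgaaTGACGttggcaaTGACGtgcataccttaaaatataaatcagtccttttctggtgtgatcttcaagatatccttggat
GSTU7: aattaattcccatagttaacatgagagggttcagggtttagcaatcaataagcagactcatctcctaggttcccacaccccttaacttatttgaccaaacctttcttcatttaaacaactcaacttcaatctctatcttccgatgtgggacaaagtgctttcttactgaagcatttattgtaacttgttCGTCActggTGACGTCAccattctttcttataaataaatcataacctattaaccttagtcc
GSTU4: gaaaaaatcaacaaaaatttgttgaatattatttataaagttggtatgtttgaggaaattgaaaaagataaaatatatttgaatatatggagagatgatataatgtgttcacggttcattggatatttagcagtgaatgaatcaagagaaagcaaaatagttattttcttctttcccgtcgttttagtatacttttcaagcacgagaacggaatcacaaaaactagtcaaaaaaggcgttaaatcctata
GSTU6: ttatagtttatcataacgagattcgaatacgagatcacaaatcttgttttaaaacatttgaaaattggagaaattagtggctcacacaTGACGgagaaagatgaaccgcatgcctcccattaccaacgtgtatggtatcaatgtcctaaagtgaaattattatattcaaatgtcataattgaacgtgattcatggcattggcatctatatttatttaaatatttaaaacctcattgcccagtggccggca
GSTU1 holds the motif 2 times, 77 and 65 bases before the start, and GSTU7 holds it 3 times, at 61, 52 and 49 bases, where the last 2 overlap. GSTU6 holds it once, at 162 bases, and GSTU4 has none in this window. Over all 38 genes, 14 promoters hold TGACG, against 18.6% of 27443 promoters of the same length in the genome. TTGAC, the core bound by WRKY factors, was in 23 (44.9% of all promoters), GAANNTTC, a heat shock element, in 6 (9.55%), GCCGCC, the core of the GCC box, in 3 (1.87%) and the G-box CACGTG in 3 (6.49%). TTGAC and TGACG overlap where TTGACG occurs. A match is a description of the sequence and says nothing of binding.

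TGA1 and TGA4 are bZIP factors of the TGA group, for which TGACG is the core site, and they differed in the number of GST genes they changed. With TGA1, 1 gene was higher (9.01% of all genes) and 17 were lower (10.7%), and with TGA4 none was higher (0.638%) and 2 were lower (0.756%). The gene that rose was GSTU9 (AT5G62480), with 94.6, 90.1 and 101 CPM with TGA1 against 16.8, 29.3 and 28.8 CPM in EV (1.92 ± 0.30, adjusted p = 4.62e-07). GSTU9 has 2 TGACG motifs in its promoter. The largest fall was that of GSTF9, with 49.2, 66.4 and 57.8 CPM with TGA1 against 149, 168 and 156 CPM in EV (-1.46 ± 0.23, adjusted p = 7.82e-07), and its promoter has none. Of the 14 tested genes with the motif, 1 rose and 7 fell with TGA1, with a median log2 fold change of -0.44. Of the 22 without it, 10 fell and none rose, with a median of -0.48. With TGA4 the falls were in GSTF10, at 145, 141 and 124 CPM against 199, 173 and 208 CPM in EV (-0.50 ± 0.12, adjusted p = 0.00743), and in GSTU4 (-0.36 ± 0.09). The GSTF10 call was lost without the EV library numbered 3 (adjusted p = 0.0658) or the TF library numbered 2 (adjusted p = 0.115). The TGA4 count against EV moved with the fit, since 0 to 3 genes passed when libraries were left out (0 without the libraries numbered 2, or 3). It was 4 with a replicate block and 5 in a fit of each TF within its own batch. Against the other TFs of batch 3, 3 GST genes differed (2.13% of all genes), but neither GSTF10 nor GSTU4 passed. GSTU12 (0.38 ± 0.11) and GSTU11 (0.29 ± 0.08) were higher there, and GSTU8 (-0.37 ± 0.10) was lower. The root markers summed to 110 to 124 CPM with TGA1 against 181 to 199.6 CPM in EV (5 of 13 lower, 0 higher), and the leaf markers to 20.8 to 23.6 CPM against 16.1 to 23.9 CPM (none of 4 passed); with TGA4 the root markers summed to 141 to 143 CPM against 152 to 187 CPM in EV, where none of 13 passed. The part of these markers in the GST changes was not tested. TGA1 was alone in its batch, so its fall against EV could not be set against other TFs.

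The difference between the effects of TGA1 and TGA4 was tested directly. It passed for 5 GST genes (2.02% of all genes), all lower with TGA1: GSTU27 (TGA1 minus TGA4 -0.96 ± 0.18, adjusted p = 0.000285), GSTF8 (-0.71 ± 0.19), GSTU24 (-0.68 ± 0.18), GSTU7 (-0.64 ± 0.16) and GSTF10 (-0.57 ± 0.17). The 2 TFs stand in different batches, each with its own EV libraries. For HHO2 minus HHO3, nitrate-responsive GARP factors, the difference passed for 1 GST gene (0.35% of all genes), GSTU6 (-0.75 ± 0.18, adjusted p = 0.0189). For LBD37 minus LBD38, repressors of nitrogen-responsive genes, it passed for 18 (7.6% of all genes), of which 17 were higher with LBD37. Those with the lowest adjusted p were GSTU24 (1.35 ± 0.18, adjusted p = 1.21e-08) and GSTU6 (1.31 ± 0.18, adjusted p = 5.65e-08), and the lower one was GSTU11 (-0.52 ± 0.16). LBD37 and LBD38 are also in different batches, 6 and 4, whose GST changes ran in different directions over all TFs.

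HSFB2A lowered 18 GST genes (12.2% of all genes were lower) and raised 3 (9.68% higher). The largest fall was that of GSTF8, with 117, 101 and 87.1 CPM with HSFB2A against 490, 667 and 612 CPM in EV (-2.53 ± 0.15, adjusted p = 2.95e-27). Reads of AT2G47720, which overlaps GSTF8 on the same strand, may be counted with it. GSTF2, which binds auxin-related compounds, was next (-1.68 ± 0.17), and GSTU5, an auxin-inducible tau gene, fell by 1.22 ± 0.12 on the log2 scale. The largest rise was that of GSTU26 (AT1G17190), with 52.2, 58.3 and 67.0 CPM with HSFB2A against 36.4, 36.4 and 18.2 CPM in EV (0.95 ± 0.27, adjusted p = 0.0064), a call that was lost without the EV library numbered 3 (0.68, adjusted p = 0.106) or the TF library numbered 2 (0.96, adjusted p = 0.052). The summed root markers were 134 to 139 CPM with HSFB2A against 105 to 118 CPM in EV, with 3 of 13 tested markers higher and 2 lower, and the leaf markers summed to 25.7 to 30.4 CPM against 42.5 to 55.7 CPM; their part in the GST changes was not tested. Against the mean of ERF056 and GATA17, the other TFs of batch 1, 12 GST genes differed (8.96% of all genes), 5 lower and 7 higher, and 7 of the calls against EV recurred with their direction. Among these 7, GSTF8 was still lower (-1.32 ± 0.13, adjusted p = 2.75e-14), as was GSTU5 (-1.08 ± 0.11), and GSTU26 was higher (1.57 ± 0.23, adjusted p = 1.78e-07). GSTF2, GSTF3, GSTF9 and GSTU11 did not pass this comparison, and GSTF10 and GSTU7, lower than in EV, were higher than in the other TFs (0.30 ± 0.10 and 0.35 ± 0.09). Without the libraries numbered 2, 13 GST genes passed against EV.

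GATA17, of the GATA zinc-finger family, lowered 18 GST genes (9.83% of all genes were lower) and raised none (6.28% higher). Its largest fall was that of GSTF2, with 24.8, 27.3 and 22.0 CPM with GATA17 against 83.9, 78.2 and 64.9 CPM in EV (-1.62 ± 0.17, adjusted p = 5.12e-13). The antisense gene AT4G02510 overlaps GSTF2 and AT2G30880 overlaps GSTF10. Without strand their reads cannot be told apart, for this or any other TF. GSTF3 (-1.35 ± 0.20), which shares 3.51% of its 50-base stretches with GSTF2, GSTF8 and GSTF10 (both -1.09) and GSTF9 (-1.05 ± 0.23) followed, so that the phi genes led the list. Against the other TFs of batch 1, 8 GST genes differed (5.57% of all genes), and 3 of the calls against EV recurred with their direction. These were GSTU6 (-0.83 ± 0.11), GSTF10 (-0.71 ± 0.10) and GSTU17 (-0.48 ± 0.12). GSTF8, GSTF6 and GSTF7 were lower than in EV but higher than in the other TFs (0.84 ± 0.12 for GSTF8). The root markers summed to 119 to 133 CPM with GATA17 against 105 to 118 CPM in EV (2 of 13 higher, 1 lower), and their part was not tested. Without the libraries numbered 2, 10 GST genes passed against EV.

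HAT22 raised 13 GST genes (10.4% of all genes were higher) and lowered 4 (6.57% lower). GSTU11, GSTF6 and GSTF7, given above, led, with GSTF3 (1.52 ± 0.22), GSTU13 (1.51 ± 0.29), GSTF2 (1.49 ± 0.20), GSTF8 (1.41 ± 0.16) and GSTU10 (1.39 ± 0.18) after them. The largest fall was that of GSTU3 (AT2G29470), with 27.9 and 39.2 CPM with HAT22 against 59.2, 44.1 and 49.4 CPM in EV (-0.62 ± 0.19, adjusted p = 0.0121), which was lost without the EV library numbered 1 (-0.50, adjusted p = 0.0807). The leaf marker sum was 70.9 and 72.7 CPM with HAT22 against 12.1 to 17.6 CPM in EV, nearly all of it CA1, the 1 of 4 tested leaf markers that passed, and the root markers summed to 290 and 319 CPM against 355 to 421 CPM, with 1 of 13 higher and 1 lower; their part in the GST changes was not tested. GSTU27 fell by 0.60 ± 0.15, GSTU6 by 0.52 ± 0.16 and GSTU4 by 0.34 ± 0.11 on the log2 scale. Against the other TFs of batch 5, 15 GST genes differed (17.3% of all genes), and all 15 had changed in the same direction against EV. GSTF8 (1.31 ± 0.12), GSTU11 (1.30 ± 0.10) and GSTF6 (1.26 ± 0.10) had the largest differences among them.

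DIV1 raised 18 GST genes (9.89% of all genes were higher) and lowered none (15.4% lower). Of the 18, 15 were tau genes, as are 27 of the 36 tested. GSTU8 had the largest rise, before GSTU15 (1.96 ± 0.38), GSTU21 (1.94 ± 0.42) and GSTU2 (1.79 ± 0.40), which had at most 2.09 CPM in the EV libraries of batch 6, and then GSTU25 (1.73 ± 0.22), GSTU24 (1.72 ± 0.13), GSTU7 and GSTU19. GSTU24 and GSTU25 are known to conjugate the explosive TNT. GSTU24 had 571, 653 and 639 CPM with DIV1, against 203, 177 and 187 CPM in EV. The root markers summed to 254 to 279 CPM with DIV1 against 296 to 301 CPM in EV (3 of 13 lower, 0 higher), and the leaf markers to 12.8 to 17.3 CPM against 27.3 to 35.96 CPM (2 of 4 lower, 0 higher); their part was not tested. GSTF6, GSTF7 and GSTU11, the most abundant genes, did not pass with DIV1. Against the other TFs of batch 6, 14 GST genes differed (27.3% of all genes), all higher, and 13 of them had risen against EV, with GSTU8 (1.57 ± 0.10), GSTU19 (1.31 ± 0.11) and GSTU7 (1.13 ± 0.08) ahead.

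LBD37 raised 16 GST genes (4.42% of all genes were higher) and lowered 2 (6.28% lower). The largest rise was that of GSTU26, with 23.1, 19.2 and 15.95 CPM with LBD37 against 5.91, 9.13 and 7.77 CPM in EV (1.34 ± 0.39, adjusted p = 0.0128), which was lost without the EV library numbered 1 (adjusted p = 0.0586) and without the TF library numbered 1 or 2 (adjusted p = 0.0868 and 0.0565). The root markers summed to 322 to 369 CPM with LBD37 against 296 to 301 CPM in EV (1 of 13 higher, 1 lower), and the leaf markers to 16.9 to 19.5 CPM against 27.3 to 35.96 CPM (none of 4 passed); their part was not tested. GSTU15 (1.17 ± 0.39, at most 2.09 CPM in the EV libraries of batch 6), GSTU22 (1.12 ± 0.28) and GSTU8 (1.08 ± 0.15) followed GSTU26. The largest fall was that of GSTU11, with 167, 199 and 203 CPM with LBD37 against 320, 313 and 323 CPM in EV (-0.75 ± 0.12, adjusted p = 4.63e-07), and GSTF6 fell by 0.41 ± 0.12 on the log2 scale. GSTF7, which did not pass, averaged 1334 ± 208 CPM with LBD37 and 1710 ± 157 CPM in EV (SD, n = 3 each). The summed level of the family was 4344 to 5177 CPM with LBD37 and 4818 to 5222 CPM in EV, so that the sums overlapped. Against the other TFs of batch 6, 16 GST genes differed (19.2% of all genes), and 10 of the calls against EV recurred with their direction. GSTU11 (-0.91 ± 0.10), GSTF6 (-0.73 ± 0.10) and GSTU26 (0.93 ± 0.26) were among them. GSTU15 (0.007 ± 0.25), GSTU22 (0.27 ± 0.19) and GSTU8 (0.15 ± 0.11) did not pass this comparison. Without the libraries numbered 2, 9 GST genes passed against EV.

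Other neighbours mostly moved alike where both changed, with exceptions. Direction also went with the batch, and GSTU22 and GSTU25 passed as lower for no TF. Apart from GSTF2 and GSTF3, genes that are not neighbours were not compared in this way. The likeness is therefore not shown to be particular to neighbours. GSTF6 and GSTF7 changed together for 18 TFs, always in the same direction, and so did GSTF2 and GSTF3, which lie on chromosomes 4 and 2, for 11 TFs. GSTU11 and GSTU12 agreed in all 8 TFs that changed both, GSTU19 and GSTU22 in all 8, GSTU25 and GSTU26 in all 6, GSTF9 and GSTF10 in all 5 and GSTU24 and GSTU25 in all 5. GSTU24 and GSTU26 moved in opposite directions for 1 of the 3 TFs that changed both, and so did GSTF4 with GSTF6, GSTF4 with GSTF7 and GSTU17 with GSTU18 for the 1 TF that changed both of each pair. GSTU20 (AT1G78370), a partner of the jasmonate-conjugating enzyme JAR1, passed for no TF next to GSTU19, which passed for 15, and was at 0 in 32 of all the libraries. GSTU16 and GSTU28 passed for no TF either, with medians of 0.384 and 1.79 CPM in EV libraries. GSTF12 passed for none against EV. Against the other TFs of their batches it passed as higher for 3 TFs, LBD37 among them (2.81 ± 0.84, and 1.04 ± 0.92 against EV). It was at 0 in 13 libraries, and its difference for DIV1, also in batch 6, had an SE of 9512. Groups with few or no reads thus enter the mean of the other TFs, and these calls are not read as rises. At an unadjusted p below 0.05 in edgeR, GSTF12 passed for 3 TFs, GSTU28 for 2, GSTU20 for 2 and GSTU16 for 1, and DESeq2 called GSTF12 for 1 TF and the other 3 genes for 0. DESeq2 gave no adjusted p for 12 (GSTF12), 9 (GSTU28), 12 (GSTU20) and 14 (GSTU16) of the 33 TFs. GSTF4, a low neighbour of GSTF6, rose with CDF1, HHO2 and ZFP4 and with CDF1 had 5.21, 5.12 and 5.50 CPM against 1.44, 0.739 and 0.920 CPM in EV.

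The lists of partner genes were set beside the family. Of the 6 genes of glutathione synthesis, reduction and turnover, 45 pairs with TFs fell and 13 rose, and most of the falls were of GR1, the cytosolic glutathione reductase (14 TFs, no rise), GGT1, a glutamyl transferase that breaks down extracellular glutathione (13 falls, 6 rises), and GSH2, glutathione synthetase (9 falls, 3 rises). The 12 genes of other glutathione transferase classes fell in 40 pairs and rose in 26, with DHAR1, a dehydroascorbate reductase, and GSTZ1 lower for 13 TFs each. Of the 3 vacuolar transporters of conjugates, ABCC1 rose for 14 TFs and fell for 1, most with DIV1 (1.82 on the log2 scale), while ABCC2 rose for 4 and fell for 6 and ABCC3 rose for 1 and fell for 5. Of the 13 partners in the response to xenobiotics and oxylipins, the pairs rose 73 times and fell 46 times, led by the oxylipin reductase OPR1 (14 rises, 4 falls), the glucosyltransferases UGT73B4 (13 rises, 4 falls) and UGT73B5 (7 rises, 6 falls) and the efflux transporter DTX3 (4 rises, 8 falls). With DIV1, 6 of these 13 rose and none fell, and with HAT22 7 rose and 1 fell. With HSFB2A 8 of the 13 fell and none rose, and with GATA17 7 fell and none rose. In the 4 lists, in this order, 29.3%, 16.7%, 31.3% and 27.7% of pairs passed, beside 29% in the phi and tau genes and 9.58% over all genes. GGT1, OPR3 and the markers WER and CA1 are also on the study's list of CHX-responsive genes, and CA1 makes up nearly all of the leaf marker sums given above. The 13 tested root markers passed in 19.8% of pairs (45 higher, 40 lower) and the 4 tested leaf markers in 9.09% (6 higher, 6 lower).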

How the data were processed

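The deposited files hold read counts per gene and library. Per the study's methods and the submitters' processing notes, the authors aligned reads to TAIR10 with TopHat2 and counted them per gene with GenomicFeatures and GenomicAlignments; treatment of multiply mapped reads and of strand is not given in the sources used here. Here edgeR 4.0.16 (TMM factors; terms for TF and batch in 1 quasi-likelihood model, 76 residual degrees of freedom) compared each TF with EV in the 22883 genes that reached 10 counts in 3 or more libraries, with Benjamini-Hochberg adjustment within a TF and a threshold of 0.05. SEs were derived from the log2 fold change and its F statistic (their ratio, with the root of F). The fit was tested on simulated data. Named genes were the 8 changed for most TFs, each in its largest change, and the largest rise and fall (at least 5 CPM) for the 6 TFs with most GST genes changed and for TGA1, TGA4 and HSFB2A. Members and lists were chosen with earlier results of these data known. DESeq2, other size factors, no filter, a replicate block, single-batch fits and left-out libraries were the alternatives. GSTU11 and GSTU20, which the study removes as CHX-responsive, were kept. Gene models and promoters are from RefSeq TAIR10.1, whose nuclear chromosomes have the lengths of TAIR10. Libraries hold 1542961 to 45372240 counts, and the shallowest limit the low genes. No 2 libraries were identical.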

Additional observations from a re-analysis of the deposited data

How the results depend on the processing

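All 17 named log2 fold changes kept their direction in 15 alternative fits, and 13 passed in each of them. In 15 of the 255 refits a call was lost, always where libraries were left out, for GSTU26 with HSFB2A and LBD37, GSTU3 with HAT22 and GSTF10 with TGA4. With DESeq2, 378 pairs of TF and GST gene passed (201 higher, 177 lower), without a filter 321, with each TF in its own batch 357, and without the CHX-responsive genes 328. Left-out libraries gave 184 to 323 pairs, 85 to 173 higher and 99 to 153 lower, and per TF 13 to 22 genes for HSFB2A, 10 to 18 for GATA17, 9 to 20 for LBD37 and 0 to 3 for TGA4; the lowest values came without the libraries numbered 2, and the cause was not tested. In its own batch TGA4 changed 5 genes. Leaving out only EV libraries, only TF libraries, or EV altogether was added after seeing the data. Against the other TFs of the batch, 279 pairs passed (148 higher, 131 lower). They included 12 for HSFB2A (8.96% of all genes) and 8 for GATA17 (5.57%), where the comparison no longer holds the EV libraries. TGA1, alone in its batch, had no such comparison. Within a batch these differences cancel out for each gene, so the near balance of directions is partly built in. The other counts from alternative fits stand here without the share of all genes. Same-numbered TF and EV libraries correlated between -0.064 and 0.23 (median 0.017), which showed no pairing over the genes used. Every pair was over 0.1 in none of 31 TFs, and 3 TFs correlated best with their own numbers throughout. The GST genes alone were not correlated in this way. In batch 1 their summed level rose with library number in EV (5893, 6615 and 6727 CPM) and in every TF. In batch 6 it did so in EV and all TFs except VRN1, and in batch 2 in EV but not with TGA1. Batches 3 to 5 were mixed. A pairing in the GST genes was thus not tested. Libraries of different TFs were not correlated with each other, so a pairing of TFs that shared wells was not tested. With a replicate block, 406 pairs passed (215 higher, 191 lower), 4 of them for TGA4. Depth limits GSTF4, GSTF12, GSTU14, GSTU16, GSTU20 and GSTU28, with EV medians of 0.384 to 1.79 CPM.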
